A study of Mus musculus with 24 samples.

Results

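The transcriptional response of MS03 cells to defactinib was measured by RNA-seq in 6 libraries, 3 from cultures given defactinib at 1 µM and 3 from cultures given its solvent, DMSO, each collected after 24 h. They were taken by their treatment labels from the 24 libraries of the series, which hold 8 treatments. MS03 is a single immortalized murine Schwann cell line: it was made from *Nf2* flox/flox cells by Cre infection, and both groups therefore carry the same *Nf2*-/- genotype and grew in the same serum-containing medium. VS-4718, GSK2256098 and IN10018, each also at 1 µM for 24 h with 3 libraries, served for direct comparison with defactinib. The labels number the libraries of each treatment as biological replicates of this line, so that p-values measure the spread between cultures of MS03 and not between animals or lines.

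Focal adhesion kinase (FAK, gene *Ptk2*) is a cytoplasmic tyrosine kinase recruited to sites where integrins bind the extracellular matrix. There it is phosphorylated, binds SRC and scaffold proteins, and passes signals from matrix and growth factor receptors to ERK, PI3K-AKT and the actin cytoskeleton. Merlin, the product of *Nf2*, restrains several of the same pathways, and schwannomas arise from Schwann cells that have lost it. Defactinib blocks the catalytic activity of FAK and of the related kinase PYK2 (*Ptk2b*), so its effect on RNA levels is indirect and the RNA of the target itself is no measure of how far the kinase was inhibited.

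Total counts were 22952048 to 27449516 in the DMSO libraries and 22539806 to 25999614 in the defactinib libraries. Of 10 Schwann cell marker genes all were detected, and their summed level in CPM (counts scaled to a common library total) was 84.9 to 86.9 CPM with DMSO and 114 to 122 CPM with defactinib. *Sox10*, *Erbb3*, *Mbp* and *Ngfr* were well above 0, whereas *S100b* had 8 counts or fewer in every library. Macrophage markers summed to 4.03 to 4.33 CPM with DMSO and 4.80 to 5.60 CPM with defactinib, with *Ptprc*, *Adgre1* and *C1qa* at 0 in all 6 libraries. Mitochondrial transcripts took 3.03% to 3.06% of counts with DMSO and 3.89%, 3.89% and 3.42% in defactinib replicates 1, 2 and 3. The part of this difference in the results was not tested.

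**Figure D1:**
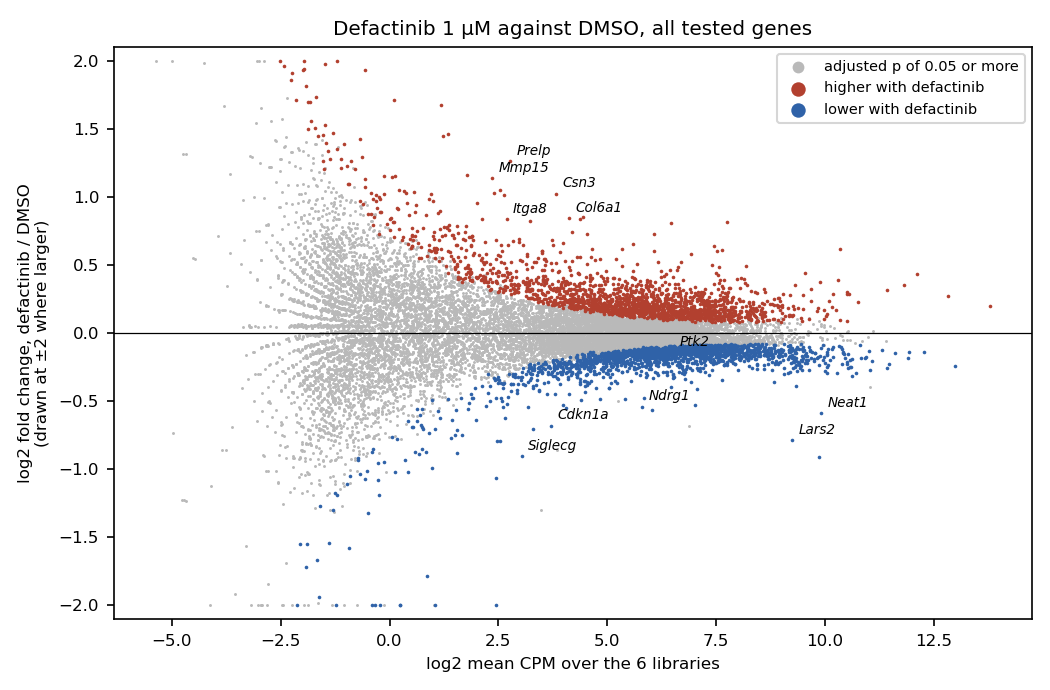
Each point is 1 of the 16070 tested genes, with the log2 of its mean CPM over the 3 DMSO and 3 defactinib libraries on the horizontal axis and its log2 fold change, defactinib over DMSO, on the vertical axis, drawn at ±2 where larger. Red and blue points passed an adjusted p of 0.05, and most of them lie within 1 log2 unit of 0, among them *Ptk2* at -0.14.

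*Ptk2* itself was measured at 92.9, 95.4 and 97.7 CPM in the DMSO libraries and 88.1, 87.7 and 83.7 CPM in the defactinib libraries. The 2 groups did not overlap, and the small decrease passed the test (log2 fold change -0.14, SE 0.035, adjusted p = 0.00253). The gene lies at chr15:73205102-73423280 on the minus strand of GRCm38. *Ptk2b* was counted 3 times or fewer per library and could not be tested. *Nf2* was counted at 184, 179 and 178 CPM in the DMSO libraries and 178, 181 and 184 CPM in the defactinib libraries, with a log2 fold change of 0.0043 (SE 0.032, adjusted p = 0.949). Gene-level counts include transcript outside the deleted part of *Nf2*, so they do not check the genotype. *Met*, which encodes the receptor for hepatocyte growth factor, was at 237 ± 4.36 CPM with DMSO and 228 ± 3.90 CPM with defactinib (SD, n = 3 each; log2 fold change -0.05, SE 0.032, adjusted p = 0.25), and its adjusted p was 0.0281 once trends with transcript length and GC content were removed.

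Defactinib changed many genes by little. In the quasi-likelihood fit of edgeR, with p-values adjusted by the method of Benjamini and Hochberg, 3594 of 16070 tested genes passed an adjusted p of 0.05 (22.4%). Of these, 1828 were higher (11.4% of tested genes) and 1766 lower (11%). The median size of a called change was 0.19 on the log2 scale, and 94 genes passed with a change of at least 2-fold (0.585%), 62 higher (0.386%) and 32 lower (0.199%). The 94 were 23 by DESeq2 and none by limma, and 8 of the 32 lower were small noncoding RNA genes whose call was lost without DMSO replicate 2. All 3 defactinib libraries lay outside the range of the 3 DMSO libraries for 5747 genes (35.8% of tested genes), above it for 17.5% and below it for 18.2%. Of the 3594 called genes, 3430 were among them, so a lack of overlap in a called gene adds little to its call.

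Among called genes with a named symbol, no overlap between the groups and an average of at least 5 CPM, the 15 largest increases ran from 0.73 to 1.26 on the log2 scale. *Prelp*, a leucine-rich proteoglycan of the matrix, was measured at 4.03, 4.17 and 3.87 CPM in the DMSO libraries and 8.81, 9.73 and 10.4 CPM in the defactinib libraries (log2 fold change 1.26, SE 0.112, adjusted p = 5.88e-11). The membrane-type metalloproteinase gene *Mmp15* followed at 3.35, 2.63 and 3.71 CPM in the DMSO libraries and 5.36, 6.55 and 9.17 CPM in the defactinib libraries (log2 fold change 1.14, SE 0.166, adjusted p = 2.13e-06). *Csn3*, a casein gene, was at 9.09, 9.06 and 9.64 CPM in the DMSO libraries and 18.4, 20.0 and 18.2 CPM in the defactinib libraries (log2 fold change 1.02, SE 0.074, adjusted p = 2.68e-13). These genes were chosen to have no overlap between the groups, and defactinib replicate 3 was the highest for *Mmp15*. *Itih5*, a hyaluronan-binding serum protein family member, was measured more deeply at 153, 157 and 158 CPM in the DMSO libraries and 273, 272 and 277 CPM in the defactinib libraries (log2 fold change 0.81, SE 0.033, adjusted p = 7.65e-21). The other genes of this set were the siderophore-binding lipocalin *Lcn2* (1.05), the neuregulin receptor *Erbb3* (1.03), the corepressor *Tle2* (1.02), the actin-associated *Gas7* (0.85), *Col6a1* (0.84), the aggrecanase *Adamts5* (0.84), the integrin *Itga8* (0.84), *Gdpd2* (0.82), the ferroxidase ceruloplasmin, *Cp* (0.81), *Notch1* (0.74) and the membrane peptidase neprilysin, *Mme* (0.73).

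Within the same limits, the 15 largest decreases ran from -0.52 to -0.90. *Siglecg*, a sialic acid-binding lectin, was at 11.3, 10.2 and 10.8 CPM in the DMSO libraries and 5.84, 5.05 and 6.22 CPM in the defactinib libraries (log2 fold change -0.90, SE 0.095, adjusted p = 3.91e-09). The stress-induced transcription factor *Atf3* was at 6.92, 7.97 and 7.09 CPM in the DMSO libraries and 3.88, 4.59 and 4.25 CPM in the defactinib libraries (log2 fold change -0.79, SE 0.112, adjusted p = 1.26e-06). *Cdkn1a*, which encodes the cyclin-dependent kinase inhibitor p21, was at 15.7, 16.6 and 15.7 CPM in the DMSO libraries and 9.16, 10.4 and 10.4 CPM in the defactinib libraries (log2 fold change -0.68, SE 0.085, adjusted p = 1.32e-07). These genes, too, were chosen to have no overlap. The nuclear RNA *Neat1*, the scaffold of paraspeckles, was at 1143, 1161 and 1175 CPM in the DMSO libraries and 755, 784 and 773 CPM in the defactinib libraries (log2 fold change -0.59, SE 0.032, adjusted p = 6.72e-17). *Snai2*, the zinc finger repressor SLUG, was at 8.01, 7.86 and 6.96 CPM in the DMSO libraries and 5.63, 5.23 and 4.01 CPM in the defactinib libraries (log2 fold change -0.62, SE 0.110, adjusted p = 4.48e-05). The remaining decreases were those of *Klhl30* (-0.79), the keratin *Krt80* (-0.71), the circadian repressor *Bhlhe40* (-0.56), *Ddit3* (-0.55), monoacylglycerol lipase, *Mgll* (-0.55), *Ndrg1* (-0.54), *Unc13d* (-0.54), *Ddit4* (-0.53), *BC029722* (-0.52) and the mitochondrial leucyl-tRNA synthetase *Lars2*. *Lars2* varied among the DMSO libraries, at 672, 613 and 1028 CPM in the DMSO libraries and 443, 489 and 409 CPM in the defactinib libraries, and its fold change of -0.79 (adjusted p = 0.0247) was -0.53 with an adjusted p of 0.202 without DMSO replicate 3. Without defactinib replicate 1 or 3 its adjusted p was 0.0588 or 0.0853, and by DESeq2 it was 0.145.

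**Figure D2:**
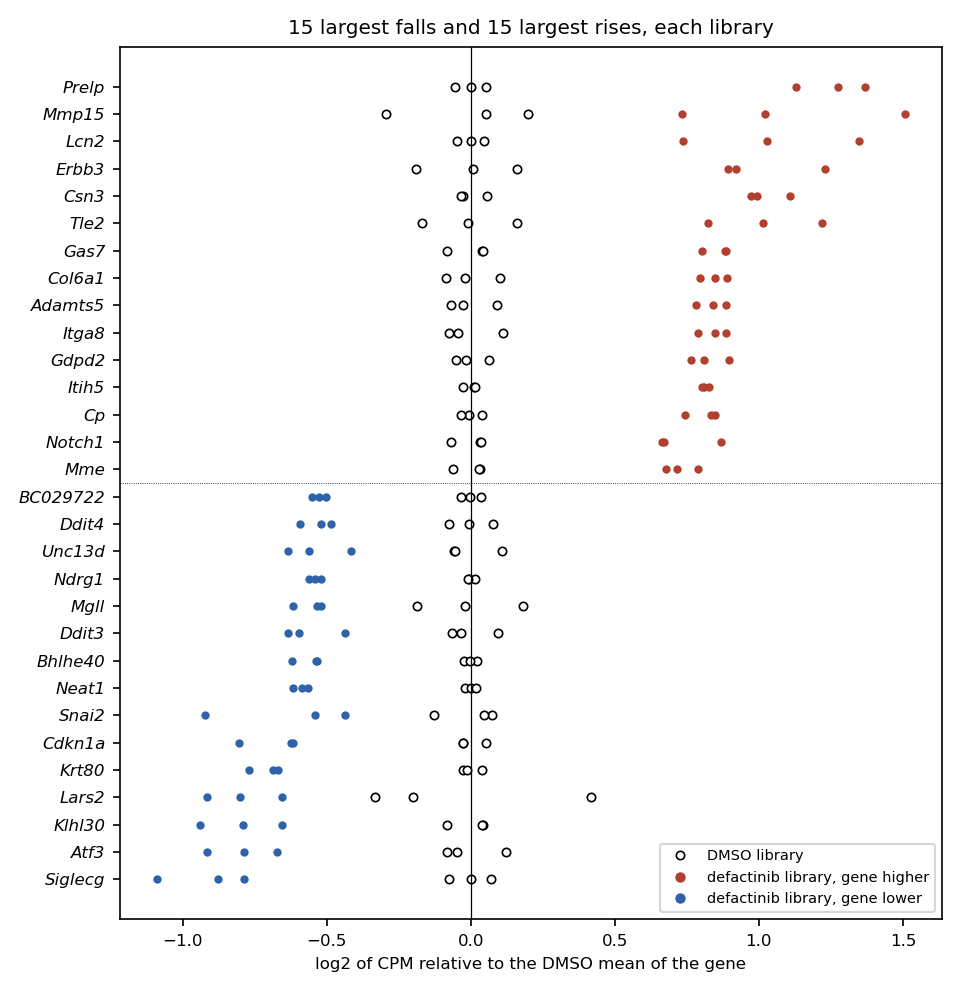
The 15 largest rises and 15 largest falls among called genes of at least 5 CPM, with the log2 of each library's CPM over the DMSO mean of that gene on the horizontal axis, open circles for DMSO libraries and filled circles for defactinib libraries. The genes were chosen to have no overlap between the groups and a named symbol, and the widest DMSO spread is that of *Lars2*.

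Genes were next read by function, with the 22.4% called among all tested genes as the background for each list. That background includes genes under about 1 CPM, few of which could pass, so the share among better expressed genes was larger.

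**Figure D3:**
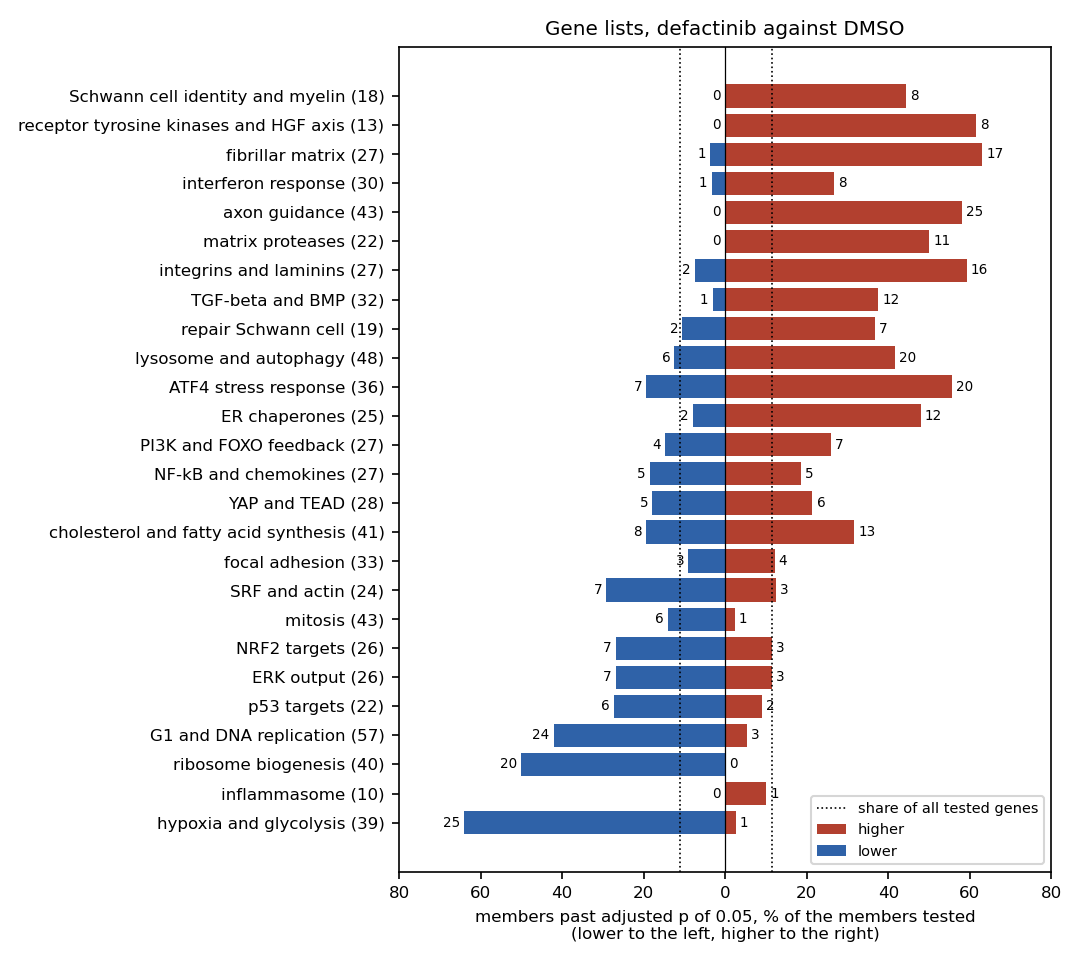
For 26 gene lists, bars give the share of tested members that were higher (right, red) or lower (left, blue) with defactinib at an adjusted p of 0.05, with the number of members at each bar's end and the number tested in brackets. Dotted lines mark the shares among all tested genes, 11.4% higher and 11% lower. Matrix and axon guidance lists lie to the right of it, and hypoxia and glycolysis, with 25 of 39 members lower, lies farthest to the left.

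Most matrix genes rose. Of 27 tested genes for collagens and other matrix components, 17 were higher and 1 was lower, with a median log2 fold change of 0.26, against -0.00444 over all tested genes. Basement membrane collagen IV rose in both of its major chains, with *Col4a1* at 235, 233 and 227 CPM in the DMSO libraries and 301, 301 and 317 CPM in the defactinib libraries (log2 fold change 0.41, SE 0.031, adjusted p = 2.13e-12) and *Col4a2* at 151, 158 and 151 CPM in the DMSO libraries and 203, 209 and 212 CPM in the defactinib libraries (log2 fold change 0.44, SE 0.035, adjusted p = 3.85e-12). *Fn1*, which encodes fibronectin, the ligand of several integrins that engage FAK, was at 1091, 1104 and 1085 CPM in the DMSO libraries and 1379, 1403 and 1515 CPM in the defactinib libraries (log2 fold change 0.39, SE 0.037, adjusted p = 4.62e-10). The matricellular protein genes *Thbs2* (0.64), *Thbs1* (0.44) and *Tnc* (0.39) rose as well. *Col6a1*, a chain of the microfibrillar collagen VI, was measured at 12.3, 13.4 and 11.8 CPM in the DMSO libraries and 23.2, 21.7 and 22.5 CPM in the defactinib libraries (log2 fold change 0.84, SE 0.071, adjusted p = 1.75e-11). For all of these genes the defactinib libraries were above the DMSO libraries. *Col1a2* had a log2 fold change of -0.02 (adjusted p = 0.702), whereas its partner chain *Col1a1* rose by 0.21 (adjusted p = 0.000336).

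Integrins and laminins moved the same way, 16 of 27 higher and 2 lower (median log2 fold change 0.18). The largest called change at 5 CPM or more was in *Itga8*, the alpha chain that pairs with beta 1 to bind RGD-containing ligands, at 4.39, 5.00 and 4.49 CPM in the DMSO libraries and 8.55, 8.32 and 7.99 CPM in the defactinib libraries (log2 fold change 0.84, SE 0.129, adjusted p = 5.45e-06). *Itgb5* and *Itgav*, which form the vitronectin receptor, rose by 0.39 (SE 0.032) and 0.23 (SE 0.036). *Itgb1*, the most shared beta chain, rose by 0.17 (SE 0.033, adjusted p = 0.000193). Laminin chains of the Schwann cell basal lamina followed, with *Lama4* (0.61), *Lamb2* (0.41), *Lamb1* (0.18) and *Lamc1* (0.15) all higher. *Itgb7* (-0.28) fell.

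Among 22 matrix proteases and inhibitors, 11 were higher and none was lower, with a median log2 fold change of 0.24. *Adamts5*, which cleaves aggrecan, was at 14.5, 14.1 and 15.7 CPM in the DMSO libraries and 26.4, 27.3 and 25.4 CPM in the defactinib libraries (log2 fold change 0.84, SE 0.069, adjusted p = 1.18e-11). *Mmp14* (0.22), the membrane-type activator of MMP2, and the inhibitors *Timp2* (0.37) and *Timp3* (0.29) were raised together. *Mmp2* had a log2 fold change of 0.06 (adjusted p = 0.711), and the gelatinase *Mmp9* one of 0.17 (adjusted p = 0.739). Fibroblast markers summed to 12.0 to 14.0 CPM with DMSO and 14.5 to 15.4 CPM with defactinib, with none of the 2 tested called and *Lum* at 0 in all 6 libraries. Nearly all of that sum was *Pdgfra*, at 12.0, 13.4 and 11.7 CPM in the DMSO libraries and 13.8, 14.0 and 14.7 CPM in the defactinib libraries, which did not overlap (adjusted p = 0.0700), and its part in the matrix result was not tested. Transcripts of the matrix list are long, with a median of 5848 bases against 2964 over tested genes, and the median fold change rose from -0.040 in the shortest to 0.021 in the longest of 5 equal groups of genes. After each library's trends with transcript length and GC content were removed, an alternative added after the data were seen, 16 matrix genes were higher and 3 lower, 15 integrins and laminins were higher and 2 lower, and 11 proteases were higher and none lower.

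Schwann cell identity and myelin genes were higher with defactinib in 8 of 18 tested members and lower in none. In bulk RNA, a larger share of cells that express a gene and more RNA of it per cell cannot be told apart. *Sox10*, the transcription factor that specifies the lineage, was at 19.7, 20.3 and 20.3 CPM in the DMSO libraries and 27.2, 30.4 and 30.9 CPM in the defactinib libraries (log2 fold change 0.56, SE 0.071, adjusted p = 1.83e-07). *Erbb3*, its direct target and the receptor through which neuregulin sustains Schwann cells, was at 3.89, 3.50 and 3.05 CPM in the DMSO libraries and 6.59, 6.46 and 8.15 CPM in the defactinib libraries (log2 fold change 1.03, SE 0.116, adjusted p = 1.51e-08). The myelin basic protein gene *Mbp* was at 15.9, 16.1 and 14.3 CPM in the DMSO libraries and 21.2, 20.5 and 20.5 CPM in the defactinib libraries (log2 fold change 0.43, SE 0.063, adjusted p = 2.6e-06). All 3 genes were higher in every defactinib library than in any DMSO library. *Cdh19* (0.90), the myelination factor *Pou3f1* (0.41), the adhesion receptor *Adgrg6* (0.36), *Cnp* (0.32) and *Foxd3* completed the 8. *Foxd3* (0.24) lost its call without defactinib replicate 3 (adjusted p = 0.116), DMSO replicate 1 (0.0877) or DMSO replicate 3 (0.0551). The promyelin regulator *Egr2* and the myelin protein gene *Pmp22* gave 0.17 (adjusted p = 0.898) and 0.19 (adjusted p = 0.0809).

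Genes of the repair Schwann cell, the state adopted after nerve injury, were split. Of 19 tested, 7 were higher and 2 lower. *Ngfr*, the p75 neurotrophin receptor, was at 9.63, 10.5 and 11.1 CPM in the DMSO libraries and 16.1, 16.4 and 16.6 CPM in the defactinib libraries (log2 fold change 0.65, SE 0.076, adjusted p = 4.08e-08), and *Notch1* at 14.0, 13.0 and 14.0 CPM in the DMSO libraries and 21.7, 21.8 and 25.0 CPM in the defactinib libraries (log2 fold change 0.74, SE 0.072, adjusted p = 4.75e-10). *L1cam* (0.68), *Ncam1* (0.36), *Cadm1* (0.23) and *Sox2* (0.15) also rose. *Jun*, the master regulator of the repair program, moved the other way, at 102, 101 and 97.7 CPM in the DMSO libraries and 74.7, 84.1 and 83.9 CPM in the defactinib libraries (log2 fold change -0.31, SE 0.042, adjusted p = 4.79e-07), and the neuregulin gene *Nrg1* was lower (-0.22, adjusted p = 0.0177), a call lost without defactinib replicate 3 (adjusted p = 0.124) or DMSO replicate 3 (0.0551). The trophic factors *Gdnf* (0.07, adjusted p = 0.234), *Lif* (0.04, adjusted p = 0.572) and *Bdnf* (-0.03, adjusted p = 0.891) did not pass the test.

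Axon guidance ligands and receptors, which Schwann cells use to contact axons and each other, were higher in 25 of 43 tested members and lower in none (median log2 fold change 0.25). The largest called change was in the plexin *Plxnb3*, at 1.94, 1.20 and 0.948 CPM in the DMSO libraries and 3.92, 3.73 and 3.50 CPM in the defactinib libraries (log2 fold change 1.46, SE 0.178, adjusted p = 8.13e-08), although at low depth. *Plxna2*, a semaphorin receptor, was at 62.2, 66.1 and 65.4 CPM in the DMSO libraries and 85.7, 81.8 and 90.0 CPM in the defactinib libraries (log2 fold change 0.41, SE 0.042, adjusted p = 2.33e-09). Of the secreted ligands, *Ntn1* (netrin) was at 76.8, 87.9 and 81.6 CPM in the DMSO libraries and 113, 108 and 118 CPM in the defactinib libraries (log2 fold change 0.46, SE 0.043, adjusted p = 2.66e-10) and *Slit2* rose by 0.37 (SE 0.045). Both sides of the ephrin system were raised, with *Efnb2* (0.33), *Ephb2* (0.30) and *Ephb4* (0.23), and among semaphorins *Sema3f* rose by 0.33. *Nrp2* and *Plxna1* gave 0.08 (adjusted p = 0.0634) and 0.06 (adjusted p = 0.307). With length and GC trends removed, 23 of the 43 were higher and none lower.

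In the list of receptor tyrosine kinases and genes of the HGF axis, 8 of 13 tested members were higher and none was lower. A further 18 members had too few counts to test, *Egfr* and the ligand *Hgf* among them. Other receptor kinases, such as *Erbb3* and *Insr*, were counted in other lists. *Pdgfrb* was at 21.4, 25.7 and 22.5 CPM in the DMSO libraries and 33.2, 34.5 and 34.2 CPM in the defactinib libraries (log2 fold change 0.54, SE 0.061, adjusted p = 1.59e-08), and *Fgfr1* at 33.2, 34.1 and 33.8 CPM in the DMSO libraries and 46.6, 48.6 and 47.0 CPM in the defactinib libraries (log2 fold change 0.49, SE 0.043, adjusted p = 4.06e-11). The collagen receptors *Ddr1* (0.31) and *Ddr2* (0.16) and *Tyro3* (0.24) were higher, and *Met*, as given above, was not called. In the TGF-beta and BMP list, 12 of 32 were higher and 1 lower. The increases were in ligands, receptors and latency proteins, such as *Tgfbr2* (0.23), *Tgfbr3* (0.38) and *Ltbp3* (0.40), and the ubiquitin ligase *Smurf2* was lower (-0.18). The response genes *Smad7* and *Id1* gave -0.06 (adjusted p = 0.728) and 0.22 (adjusted p = 0.106).

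Genes for the focal adhesion itself were called about as often as all genes. Of 33 tested, 4 were higher and 3 lower, 21.2% called against 22.4% of all genes. *Tns1*, a tensin that links integrin tails to actin, was at 43.0, 44.8 and 41.8 CPM in the DMSO libraries and 55.7, 55.0 and 59.4 CPM in the defactinib libraries (log2 fold change 0.39, SE 0.049, adjusted p = 1.2e-07), and the SRC-family kinase *Fyn* at 40.5, 40.9 and 41.7 CPM in the DMSO libraries and 46.4, 50.2 and 47.4 CPM in the defactinib libraries (log2 fold change 0.23, SE 0.043, adjusted p = 0.000124). The other members called lower were *Parvb* (-0.15), with an adjusted p of 0.0745 without defactinib replicate 2, and the integrin activator *Fermt2* (-0.10), with adjusted p-values of 0.0522 to 0.1 without any 1 library. The FAK-binding adaptors *Pxn* (paxillin) and *Bcar1* (p130Cas) gave 0.05 (adjusted p = 0.451) and -0.09 (adjusted p = 0.11), and *Vcl* and *Src* 0.02 (adjusted p = 0.783) and -0.06 (adjusted p = 0.377). Without defactinib replicate 2 only 1 was lower, and with length and GC trends removed 9 of the 33 were lower and 3 higher.

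Actin and SRF-dependent genes were lower in 7 of 24 tested members and higher in 3. *Tagln2*, a calponin-family actin binder, was at 219, 217 and 227 CPM in the DMSO libraries and 171, 181 and 169.6 CPM in the defactinib libraries (log2 fold change -0.35, SE 0.034, adjusted p = 5.32e-10), and *Cnn3* and *Actg1* fell by 0.16 (SE 0.030) and 0.15 (SE 0.030). The filamin gene *Flna* rose by 0.23 (SE 0.029). *Srf* and *Actb* gave 0.02 (adjusted p = 0.873) and -0.06 (adjusted p = 0.258). Without defactinib replicate 3 the count lower was 4, and it was 6 without replicate 1, where the median of the list was 0.010 in place of -0.033. Targets of YAP and TEAD, which merlin holds back through the Hippo kinases, were divided, 6 higher and 5 lower of 28. *Ankrd1*, a standard YAP readout, was at 182, 174 and 179 CPM in the DMSO libraries and 146, 146 and 140.0 CPM in the defactinib libraries (log2 fold change -0.31, SE 0.036, adjusted p = 3.53e-08), and *Ccn1* fell by 0.15 (SE 0.030), whereas *Ccn2* gave 0.01 (adjusted p = 0.939) and *Amotl2* 0.03 (adjusted p = 0.534). *Crim1* rose by 0.26 (SE 0.031). With length and GC trends removed 4 were higher and 8 lower.

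Outputs of ERK signaling were lower in 7 of 26 tested genes and higher in 3, and the number higher was 1 without defactinib replicate 3 or DMSO replicate 2 and with length and GC trends removed. *Myc* was at 378, 371 and 381 CPM in the DMSO libraries and 305, 311 and 324 CPM in the defactinib libraries (log2 fold change -0.27, SE 0.033, adjusted p = 1.09e-07), and the immediate early gene *Ier3* at 113, 115 and 105 CPM in the DMSO libraries and 90.2, 91.3 and 90.5 CPM in the defactinib libraries (log2 fold change -0.29, SE 0.044, adjusted p = 4.59e-06). *Fosl1* (-0.17), *Junb* (-0.16) and the cyclin D1 gene *Ccnd1* (-0.10, SE 0.029) fell by less. Feedback regulators of ERK were mixed. The phosphatase *Dusp4* was lower (-0.16, adjusted p = 0.0311) and *Spred3* higher (0.16, adjusted p = 0.0295), with adjusted p-values of 0.0604 to 0.257 and 0.0574 to 0.133 where a left-out library ended the call: defactinib replicate 1 or any 1 DMSO library for *Dusp4*, and defactinib replicate 1 or 3 or DMSO replicate 1 or 2 for *Spred3*. *Dusp6* was at 0.03 (adjusted p = 0.735), *Spry4* at 0.06 (adjusted p = 0.797) and the ERK target *Etv4* at 0.05 (adjusted p = 0.47). Of 27 genes under PI3K and FOXO control, 7 were higher and 4 lower, or 2 lower without defactinib replicate 1 or DMSO replicate 1 or 2. The increases held *Pik3ip1*, an inhibitor of PI3K, at 4.43, 4.25 and 4.86 CPM in the DMSO libraries and 6.85, 6.37 and 6.93 CPM in the defactinib libraries (log2 fold change 0.58, SE 0.095, adjusted p = 1.71e-05), the insulin receptor *Insr* (0.35, SE 0.038), *Igf1r* (0.21) and the alpha-arrestin *Txnip* (0.45, SE 0.052). *Klf9* fell (-0.24, SE 0.063).

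Most hypoxia-inducible and glycolytic genes fell: 25 of 39 tested members were lower and 1 was higher, with a median log2 fold change of -0.16. *Ndrg1* was at 65.4, 66.5 and 65.4 CPM in the DMSO libraries and 45.9, 44.6 and 45.2 CPM in the defactinib libraries (log2 fold change -0.54, SE 0.042, adjusted p = 2.69e-12). *Bnip3*, a mitophagy receptor, was at 105, 100.2 and 93.9 CPM in the DMSO libraries and 77.3, 76.3 and 73.8 CPM in the defactinib libraries (log2 fold change -0.40, SE 0.039, adjusted p = 6.23e-10), and *Ddit4*, an inhibitor of mTORC1, at 159.9, 151 and 144 CPM in the DMSO libraries and 101, 106 and 108 CPM in the defactinib libraries (log2 fold change -0.53, SE 0.044, adjusted p = 1.02e-11). Every defactinib library was below every DMSO library for all 3. In the glycolytic chain, *Pgk1* was at 1755, 1724 and 1716 CPM in the DMSO libraries and 1384, 1408 and 1382 CPM in the defactinib libraries (log2 fold change -0.32, SE 0.030, adjusted p = 3.98e-10), and *Ldha*, which converts pyruvate to lactate, at 2313, 2285 and 2281 CPM in the DMSO libraries and 1849.8, 1923 and 1914 CPM in the defactinib libraries (log2 fold change -0.27, SE 0.031, adjusted p = 2e-08). The other steps fell in parallel, with *Hk2* (-0.22), *Pfkl* (-0.19), *Aldoa* (-0.18), *Tpi1* (-0.28), *Gapdh* (-0.23), *Pgam1* (-0.23), *Eno1* (-0.19) and *Pkm* (-0.14) lower in all 3 defactinib libraries. The exception was the collagen prolyl hydroxylase subunit *P4ha2*, which was higher (0.15, SE 0.033). Other targets of hypoxia-inducible factors did not pass the test, *Vegfa* at -0.04 (adjusted p = 0.554), *Car9* at 0.03 (adjusted p = 0.743) and *Pdk1* at -0.06 (adjusted p = 0.328). The oxygen-regulated subunit gene *Hif1a* was called at -0.098 (adjusted p = 0.0409), but not without defactinib replicate 2 or 3 or any 1 DMSO library (adjusted p 0.0637 to 0.15). With length and GC trends removed, 27 members were lower and 1 higher, and leaving out any 1 library kept the number lower at 22 or more.

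Hypoxia-inducible factors bind a core sequence, A or G followed by CGTG. In the 250 bases before the start of transcription in the RefSeq promoter table (GRCm38.p6), ACGTG or GCGTG on either strand occurred for 19 of the 23 decreased members that have an entry. It also occurred for all 12 of the other tested members with an entry. A gene can have several promoters in the table, and counted by promoter the core was in 26 of the 33 promoters of the decreased members (78.8%) and in 38.6% of the 32851 promoters of the table. The promoters of the 3 members with the largest decreases among those that hold the core are shown, 5′ to 3′ on the strand of the gene, with the core in capitals. That of *Ddit4* lies at chr10:59951771-59952020 on the minus strand, that of *Bnip3* at chr7:138909507-138909756 on the minus strand and that of *Pgk1* at chrX:106186850-106187099 on the plus strand.

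Ddit4: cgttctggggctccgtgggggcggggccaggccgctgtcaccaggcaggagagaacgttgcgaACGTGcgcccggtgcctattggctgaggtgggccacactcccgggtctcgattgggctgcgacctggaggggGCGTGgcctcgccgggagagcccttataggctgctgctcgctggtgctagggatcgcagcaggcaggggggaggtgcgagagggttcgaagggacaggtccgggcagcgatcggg

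Bnip3: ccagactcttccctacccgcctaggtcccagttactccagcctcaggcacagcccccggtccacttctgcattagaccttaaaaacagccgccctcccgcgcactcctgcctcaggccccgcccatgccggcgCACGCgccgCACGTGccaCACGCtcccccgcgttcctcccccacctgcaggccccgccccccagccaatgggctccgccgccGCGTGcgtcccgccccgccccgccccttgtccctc

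Pgk1: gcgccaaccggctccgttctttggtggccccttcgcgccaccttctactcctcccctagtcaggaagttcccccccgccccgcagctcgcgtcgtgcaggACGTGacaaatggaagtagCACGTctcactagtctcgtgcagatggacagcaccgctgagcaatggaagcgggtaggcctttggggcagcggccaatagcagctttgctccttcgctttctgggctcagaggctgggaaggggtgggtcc

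*Bnip3* has 5 matches, of which 2 overlap on opposite strands in CACGTG, and *Ddit4* and *Pgk1* have 2 each. A match is a description of the letters and not of factor binding.

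Lysosome and autophagy genes were higher in 20 and lower in 6 of 48 tested members. The increases were in enzymes of the lysosomal lumen and in membrane proteins. *Hexa* was at 52.2, 52.5 and 50.1 CPM in the DMSO libraries and 66.5, 68.4 and 68.4 CPM in the defactinib libraries (log2 fold change 0.39, SE 0.043, adjusted p = 1.16e-08), the galactosidase *Glb1* at 53.5, 55.4 and 52.9 CPM in the DMSO libraries and 68.3, 69.4 and 65.1 CPM in the defactinib libraries (log2 fold change 0.32, SE 0.041, adjusted p = 1.58e-07) and the protease cathepsin D, *Ctsd*, at 280.3, 285 and 271 CPM in the DMSO libraries and 341, 354 and 342 CPM in the defactinib libraries (log2 fold change 0.31, SE 0.033, adjusted p = 5.05e-09). For all of these the 2 groups did not overlap. *Naglu* (0.33), *Psap* (0.28), *Gaa* (0.27), *Ctsb* (0.23), the cholesterol exporters *Npc1* (0.26) and *Npc2* (0.23) and the membrane glycoprotein *Lamp1* (0.25) were higher too. Among the 6 lower were the proton pump subunit *Atp6v1a*, at 125, 124 and 121 CPM in the DMSO libraries and 109, 103 and 99.5 CPM in the defactinib libraries (log2 fold change -0.25, SE 0.036, adjusted p = 1.36e-06), and the autophagy genes *Uvrag* at -0.24 (SE 0.047) and *Gabarapl1* at -0.22 (SE 0.042). The regulators of the program, *Tfeb* (-0.18, adjusted p = 0.234), *Tfe3* (-0.08, adjusted p = 0.28) and *Mitf* (-0.15, adjusted p = 0.346), did not pass the test.

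**Figure D4:**
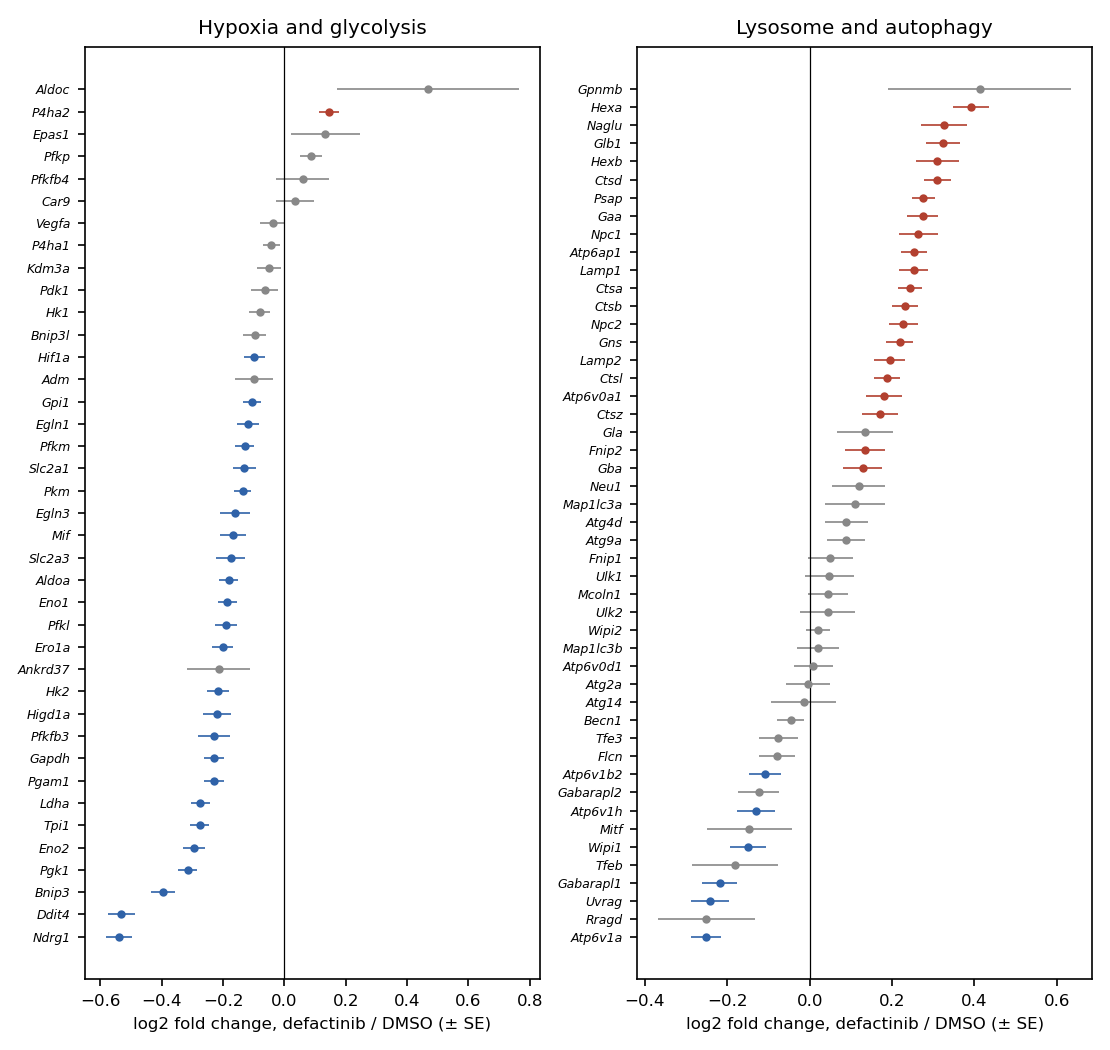
Log2 fold change, defactinib over DMSO, with its SE, for the 39 hypoxia and glycolysis genes (left) and the 48 lysosome and autophagy genes (right) tested, red or blue where the adjusted p was under 0.05 and grey otherwise. On the left 25 genes are blue, down to *Ndrg1* at -0.54, and on the right 20 are red, up to *Hexa* at 0.39, with *Atp6v1a* lowest at -0.25.

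TFEB and its relatives bind the palindromic E-box CACGTG, which reads the same on both strands. It occurred in the 250 bases before the start for 7 of the 15 increased lysosome and autophagy members with a RefSeq entry and for 4 of the 24 others tested. Counted by promoter, it was in 7 of the 17 promoters of the increased members (41.2%) and in 6.02% of all promoters of the table. The E-box contains the hypoxia core ACGTG. The 3 members with the largest increases among those that hold it are shown in the same way, with the E-box in capitals. That of *Naglu* lies at chr11:101069844-101070093 on the plus strand, that of *Glb1* at chr9:114400828-114401077 on the plus strand and that of *Ctsd* at chr7:142387828-142388077 on the minus strand.

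Naglu: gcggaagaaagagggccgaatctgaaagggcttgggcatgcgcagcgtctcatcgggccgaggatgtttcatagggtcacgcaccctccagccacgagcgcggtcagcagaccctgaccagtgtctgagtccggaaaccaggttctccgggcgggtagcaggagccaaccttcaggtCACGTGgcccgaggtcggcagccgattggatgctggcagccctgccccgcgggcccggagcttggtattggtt

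Glb1: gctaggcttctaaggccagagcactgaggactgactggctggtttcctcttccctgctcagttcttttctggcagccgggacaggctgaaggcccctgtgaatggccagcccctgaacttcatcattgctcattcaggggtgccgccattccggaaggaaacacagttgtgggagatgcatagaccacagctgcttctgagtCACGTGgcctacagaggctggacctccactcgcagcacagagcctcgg

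Ctsd: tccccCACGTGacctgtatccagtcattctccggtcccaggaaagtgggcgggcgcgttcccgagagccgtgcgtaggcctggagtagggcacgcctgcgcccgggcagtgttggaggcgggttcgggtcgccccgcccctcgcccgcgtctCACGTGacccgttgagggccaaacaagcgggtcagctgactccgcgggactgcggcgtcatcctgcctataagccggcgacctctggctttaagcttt

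*Ctsd* has 2 matches and the other two 1 each.

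Targets of ATF4, the transcription factor of the integrated stress response, moved in both directions. Of 36 tested, 20 were higher and 7 lower, and 75.0% were called. Amino acid transporters and synthetases were among those that rose. *Slc7a11*, the cystine importer, was at 31.3, 29.8 and 29.7 CPM in the DMSO libraries and 39.8, 40.4 and 39.7 CPM in the defactinib libraries (log2 fold change 0.40, SE 0.052, adjusted p = 2.12e-07), *Asns*, asparagine synthetase, at 180.3, 184 and 175 CPM in the DMSO libraries and 209.8, 212 and 203 CPM in the defactinib libraries (log2 fold change 0.21, SE 0.033, adjusted p = 8.01e-06), and the transcription factor *Atf5* at 60.3, 57.4 and 58.8 CPM in the DMSO libraries and 82.2, 84.8 and 86.5 CPM in the defactinib libraries (log2 fold change 0.52, SE 0.041, adjusted p = 2.69e-12). *Slc7a5* (0.20), *Slc38a2* (0.17) and the cysteinyl-tRNA synthetase *Cars* (0.23) rose with them. The 7 that fell held regulators of the stress response. *Ddit3*, which encodes the proapoptotic factor CHOP, was at 21.0, 18.8 and 19.2 CPM in the DMSO libraries and 12.7, 14.6 and 13.0 CPM in the defactinib libraries (log2 fold change -0.55, SE 0.073, adjusted p = 3.86e-07), and *Chac1*, which degrades glutathione, at 23.3, 25.1 and 21.9 CPM in the DMSO libraries and 16.4, 20.1 and 17.8 CPM in the defactinib libraries (log2 fold change -0.38, SE 0.069, adjusted p = 8.39e-05). *Ppp1r15a* (-0.36), *Trib3* (-0.29) and *Atf4* itself (-0.10, SE 0.031) were lower, *Atf4* with an adjusted p of 0.0703 without DMSO replicate 1. The groups did not overlap for any of these 11 genes, as for most called genes. Endoplasmic reticulum chaperones were higher in 12 of 25 and lower in 2. *Pdia4* (0.24, SE 0.032), *Pdia6* (0.21) and *Calr* (0.19) rose, and *Hspa5*, the main chaperone of the lumen, was lower (-0.10, SE 0.030), with an adjusted p of 0.0591 without DMSO replicate 1.

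Genes of ribosome production were lower in 20 of 40 tested members and higher in none (median log2 fold change -0.094). *Npm1*, nucleophosmin, was at 3019.7, 2937 and 2969.7 CPM in the DMSO libraries and 2538, 2527 and 2405 CPM in the defactinib libraries (log2 fold change -0.26, SE 0.030, adjusted p = 3.53e-08), and *Ncl*, nucleolin, fell by 0.15 (SE 0.029). *Pes1* (-0.19) and *Bop1* (-0.17), which process the large subunit RNA, and *Nop16* (-0.24) were lower. *Ubtf* and *Polr1a*, of RNA polymerase I, gave -0.01 (adjusted p = 0.834) and -0.04 (adjusted p = 0.466).

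In a list of genes that act in G1 and DNA replication, which holds promoters and inhibitors of S phase entry, 24 of 57 tested members were lower and 3 higher, or 1 higher without DMSO replicate 1 or 2. The 24 include the cyclin-dependent kinase inhibitors *Cdkn1a* (-0.68) and *Cdkn2d* (-0.20). The replicative helicase was lowered in most subunits, *Mcm6* at 371, 372 and 375 CPM in the DMSO libraries and 328, 308 and 319 CPM in the defactinib libraries (log2 fold change -0.23, SE 0.028, adjusted p = 1e-07), *Mcm3* by 0.22, *Mcm2* by 0.21, *Mcm4* by 0.18 and *Mcm5* by 0.16, while *Mcm7* gave -0.06 (adjusted p = 0.183). *Rrm2* (-0.15), *Tk1* (-0.21) and *Pcna* (-0.13) fell alongside. Cyclin E1, *Ccne1*, went up, at 41.3, 41.1 and 43.2 CPM in the DMSO libraries and 54.2, 52.4 and 53.5 CPM in the defactinib libraries (log2 fold change 0.35, SE 0.045, adjusted p = 2.54e-07). Of 43 mitotic genes, 6 were lower and 1 higher, 16.3% called against 22.4% of all genes. The call of the 1 higher was lost without defactinib replicate 1 or 3 or DMSO replicate 3. With length and GC trends removed 13 were lower and 2 higher. *Mybl2* (-0.21, SE 0.039) and *Ccna2* (-0.15, SE 0.031) fell, and *Top2a* and *Ccnb1* gave 0.03 (adjusted p = 0.567) and -0.07 (adjusted p = 0.143). The p53 targets other than *Cdkn1a* were lower in 6 of 22 and higher in 2, with *Plk2* at 90.4, 92.0 and 92.0 CPM in the DMSO libraries and 73.0, 74.0 and 74.2 CPM in the defactinib libraries (log2 fold change -0.31, SE 0.034, adjusted p = 9.98e-09), whereas *Mdm2* gave -0.002 (adjusted p = 0.977). Without DMSO replicate 1 or 2 the number lower was 3, with any 1 library left out the number higher was 0 or 1, and with the trends removed 10 were lower.

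Of 41 tested genes of cholesterol and fatty acid synthesis, 13 were higher and 8 lower. The SREBP1 gene *Srebf1* (0.19, SE 0.036) and the desaturase *Fads1* (0.14, SE 0.028) rose, and the early mevalonate enzyme *Hmgcs1* (-0.17, SE 0.033) and *Insig1* (-0.13, SE 0.033) fell. Without defactinib replicate 3 the number higher was 8, without DMSO replicate 2 the number lower was 4, and with the trends removed 15 were lower. Among 26 targets of the antioxidant factor NRF2, 7 were lower and 3 higher. *Srxn1* was at 40.7, 37.0 and 37.5 CPM in the DMSO libraries and 30.1, 30.3 and 29.1 CPM in the defactinib libraries (log2 fold change -0.36, SE 0.050, adjusted p = 7.83e-07) and *Txnrd1* fell by 0.19 (SE 0.029), while the aldehyde dehydrogenase *Aldh3a1* rose, at 20.2, 19.4 and 19.9 CPM in the DMSO libraries and 30.6, 31.4 and 29.5 CPM in the defactinib libraries (log2 fold change 0.62, SE 0.059, adjusted p = 3.98e-10). Scaled by library totals alone 5 NRF2 targets were lower and 5 higher, and without DMSO replicate 1 both counts were 4.

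*Nlrp3*, *Casp1*, *Il1b* and *Il6* had 2 counts or fewer in each library, and of 10 tested inflammasome genes 1 was higher, *Txnip*. In the NF-kB list 5 of 27 were higher and 5 lower, and 3 were higher without defactinib replicate 2 or DMSO replicate 1 or 2, by DESeq2 and without the filter. *Csf1*, a macrophage growth factor, was at 461, 458 and 463 CPM in the DMSO libraries and 545, 537 and 546 CPM in the defactinib libraries (log2 fold change 0.24, SE 0.028, adjusted p = 5.72e-08), and *Ccl5* at 1.90, 1.77 and 1.81 CPM in the DMSO libraries and 3.31, 2.68 and 3.38 CPM in the defactinib libraries (log2 fold change 0.78, SE 0.205, adjusted p = 0.0045), whereas the NF-kB subunit gene *Nfkb2* fell by 0.19 (SE 0.037) and the feedback inhibitor *Tnfaip3* by 0.26 (SE 0.057). *Nfkbia* gave -0.10 (adjusted p = 0.179) and *Cxcl1* 0.02 (adjusted p = 0.965). Of 30 interferon response genes, 8 were higher and 1 lower, and the number lower ranged from 0 to 2 with 1 library left out. The highest log2 fold change of the list was 3.199, in a member not named here, the size of the largest called rise among all tested genes. By limma no called gene reached 2-fold. *Ifit1* was at 1.67, 1.28 and 1.57 CPM in the DMSO libraries and 2.49, 2.96 and 2.13 CPM in the defactinib libraries (log2 fold change 0.74, SE 0.194, adjusted p = 0.00416), *Irf9* rose by 0.37 (SE 0.087), and *B2m*, the light chain of MHC class I, rose by 0.14 (SE 0.028).

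Defactinib was then compared directly with each of the other 3 kinase inhibitors of FAK at the same dose and time, over the same 16070 genes, with p-values adjusted within each of the 3 comparisons. These comparisons share the defactinib libraries, so they are not independent of each other. *Ptk2* passed the test in none of them, with log2 differences of 0.04 from VS-4718, -0.01 from GSK2256098 and -0.07 from IN10018 (SE 0.035 each) and adjusted p-values of 0.474, 0.883 and 0.13.

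Against VS-4718, 5460 genes differed (34%), 2568 higher with defactinib (16%) and 2892 lower (18%). Of 36 ATF4 targets, 34 were higher with defactinib and none lower, with a median log2 difference of 0.62. *Slc7a11* was at 39.8, 40.4 and 39.7 CPM with defactinib and 4.95, 5.24 and 5.39 CPM with VS-4718 (log2 difference 2.94, SE 0.069, adjusted p = 1.18e-29), on either side of the DMSO mean of 30.2 CPM. *Chac1* was at 16.4, 20.1 and 17.8 CPM against 3.77, 3.23 and 2.89 CPM (log2 difference 2.45, SE 0.098, adjusted p = 4.4e-22), and both groups were under the DMSO mean of 23.4 CPM. *Trib3* (2.31), *Pck2* (1.74) and *Asns* (0.97) were higher with defactinib too. Hypoxia and glycolysis genes were higher with defactinib in 33 of 39 and lower in 1, for example *Bnip3* at 75.8 ± 1.77 CPM against 40.6 ± 0.653 CPM (SD, n = 3 each; log2 difference 0.90, SE 0.042, adjusted p = 7.04e-20). Focal adhesion genes were lower with defactinib in 24 of 33 and SRF and actin genes in 16 of 24. *Synpo*, an actin-bundling protein gene, was at 19.0, 19.8 and 20.5 CPM against 44.2, 41.9 and 39.5 CPM (log2 difference -1.08, SE 0.054, adjusted p = 5.51e-19). Schwann identity genes were lower with defactinib in 8 of 18, with *Sox10* at 29.5 ± 2.02 CPM against 47.0 ± 4.22 CPM (log2 difference -0.67, SE 0.063, adjusted p = 4.89e-11), and *Ngfr* differed by -1.11. The histone gene *H2afx* (-1.18) and *Gal3st1* (-0.99) were lower with defactinib.

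Against GSK2256098 the fewest genes differed, 1846 (11.5%), 899 higher with defactinib (5.59%) and 947 lower (5.89%). Without defactinib replicate 1 the count was 1123. ATF4 targets were higher with defactinib in 28 of 36 and lower in none (median log2 difference 0.33). *Slc7a11* was at 14.6, 12.8 and 14.9 CPM with GSK2256098 (log2 difference 1.5, SE 0.058, adjusted p = 1.34e-21), and *Pck2*, the mitochondrial PEP carboxykinase, at 144, 146 and 148 CPM with defactinib against 70.0, 71.2 and 69.9 CPM (log2 difference 1.06, SE 0.035, adjusted p = 1.06e-23). *Aldh1l2* (0.88) and *Dqx1* (0.85) followed. Among genes lower with defactinib, *Krt80* was at 7.63, 7.55 and 7.12 CPM against 13.4, 13.4 and 13.8 CPM (log2 difference -0.86, SE 0.091, adjusted p = 6.02e-09), with *Aldh3a1* (-0.90), *Siglecg* (-0.75) and *Synpo* (-0.63) beside it. Lysosome and autophagy genes were higher with defactinib in 17 of 48 and lower in 4, *Ctsd* by 0.27 and *Hexa* by 0.27. Of 18 Schwann identity genes 1 was higher and 1 lower, 11.1% called against 11.5% of all genes. *Sox10* differed by 0.09 (SE 0.068, adjusted p = 0.441) and *Ldha* by -0.03 (SE 0.031, adjusted p = 0.556).

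Against IN10018, 5548 genes differed (34.5%), 2667 higher with defactinib (16.6%) and 2881 lower (17.9%). Hypoxia and glycolysis genes were lower with defactinib in 34 of 39 and higher in none, with a median log2 difference of -0.41. *Ndrg1* was at 45.9, 44.6 and 45.2 CPM against 126, 123 and 128 CPM with IN10018 (log2 difference -1.47, SE 0.040, adjusted p = 8.76e-27), and *Ddit4* at 101, 106 and 108 CPM against 257, 252 and 270.3 CPM (log2 difference -1.31, SE 0.043, adjusted p = 3.28e-24). The DMSO means, 65.8 and 152 CPM, lay between the inhibitors for both genes. *Cdkn1a* was at 9.16, 10.4 and 10.4 CPM against 28.9, 24.5 and 28.1 CPM (log2 difference -1.44, SE 0.081, adjusted p = 4.41e-17), and *Mettl7b* differed by -1.20. The ATF4 list was split, 9 higher and 13 lower with defactinib, *Slc7a11* by 0.13 and *Ddit3* by -1.13. Matrix genes were higher with defactinib in 18 of 27, integrins and laminins in 18 of 27 and axon guidance genes in 30 of 43. *Mmp15* was at 5.36, 6.55 and 9.17 CPM against 3.23, 3.27 and 2.98 CPM (log2 difference 1.16, SE 0.170, adjusted p = 7.47e-07), *Itga8* at 8.55, 8.32 and 7.99 CPM against 4.29, 4.26 and 3.43 CPM (log2 difference 1.05, SE 0.135, adjusted p = 5.78e-08), and *Csn3* (1.03) and *Gas7* (1.02) differed by similar amounts. Schwann identity genes were higher with defactinib in 8 of 18, *Erbb3* by 0.90 and *Sox10* by 0.38.

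**Figure D5:**
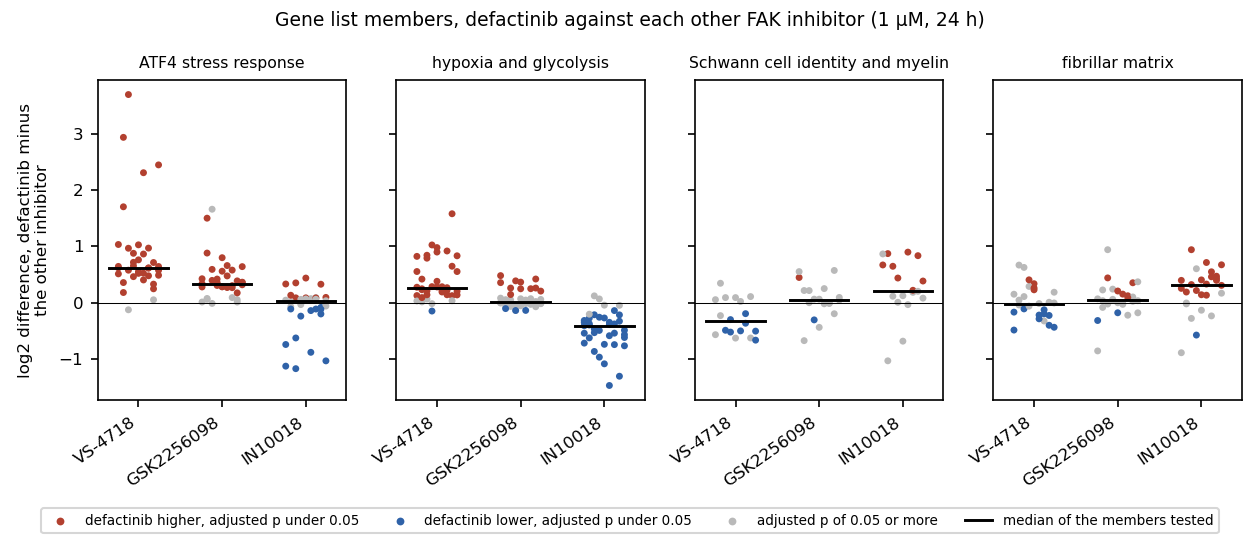
Points are members of 4 gene lists, placed by their log2 difference, defactinib minus VS-4718, GSK2256098 or IN10018, with lines at the medians and red or blue points where the adjusted p was under 0.05. ATF4 targets lie above 0 against VS-4718 and GSK2256098 (medians 0.62 and 0.33), and hypoxia and glycolysis genes lie above 0 against VS-4718 and below it against IN10018 (median -0.41).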

How the data were processed

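Poly(A) RNA of MS03 cells was sequenced in 24 libraries, 3 for each of 8 treatments. Per the labels, the authors trimmed reads with Trimmomatic 0.36, aligned them to GRCm38 with STAR 2.5.2b and assigned them to genes with featureCounts of Subread 1.5.2. The deposited values are whole-number counts per gene for 49315 genes. The annotation release and the strand and multi-mapping settings are not given in the sources used here, so reads of overlapping genes or near-identical copies may be shared between them.

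Counts were filtered (filterByExpr), scaled by TMM and fitted with edgeR 4.0.16 in R 4.3.3 (glmQLFit, glmQLFTest) over all 24 libraries, with 8 group terms and 16 residual degrees of freedom. This left 16070 genes, and p-values were adjusted by Benjamini-Hochberg within each comparison at a threshold of 0.05. CPM values are TMM-scaled, SE is the log2 fold change over the root of the F statistic, and errors are SD over 3 libraries. Each pair of replicates differed by more than sampling noise. The fit recovered most planted changes of 2-fold or more in counts simulated from its own estimates of spread. Most called changes were smaller than 2-fold, and no recovery rate is given here for those.

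Genes named were the 15 largest rises and 15 largest falls, *Ptk2*, *Ptk2b*, *Nf2*, *Met*, members of 26 gene lists, and against each inhibitor the 4 largest differences in each direction. The rises, falls and differences were taken among called genes with a mean of at least 5 CPM, no overlap between groups and a named symbol. Genes named only by a clone or predicted-gene identifier (Gm or Rik) were left out. Within a list the rule took at most 6 members, the largest changes and the defining genes; other members were named after their values were seen. The members and lists were chosen with earlier results of these data known. Coordinates came from GENCODE M21 (GRCm38, 49056 IDs matched) and promoters from RefSeq (GRCm38.p6).

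Alternatives were DESeq2 1.42.0, limma 3.58.1 on log2(CPM + 4), library totals without TMM, no filter, the 6 libraries alone, a replicate block, each library left out, a 2-fold minimum and, added after the data were seen, removal of length and GC trends. Some members of the lists are counted but not reported here by name.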

Additional observations from a re-analysis of the deposited data

How the results depend on the processing

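Against DMSO, 3594 genes passed in the fit reported. The count was 3302 with DESeq2 (3432 genes had no adjusted p), 3296 with limma, 3423 with library totals alone (2063 higher and 1360 lower), 3234 without the filter, 3834 with the 6 libraries alone, 4081 with length and GC trends removed (1681 higher and 2400 lower), and 2731 to 2988 with 1 library left out. Of the 3594, 3251 were also called by DESeq2, 3270 by limma and 3248 with the trends removed, where 1 changed sign, and 2 changed sign without DMSO replicate 2. With a 2-fold minimum 94 genes remained against DMSO, 183 against VS-4718, 35 against GSK2256098 and 176 against IN10018. That minimum left 23 genes against DMSO by DESeq2 and none by limma, whose log2(CPM + 4) scale understates changes of low genes. With 1 library left out, the counts ranged from 4517 to 5175 against VS-4718, from 1123 to 1511 against GSK2256098 and from 4667 to 5125 against IN10018, and the cause of the drop to 1123 was not tested. Replicate numbers did not pair the samples (correlations of -0.011, -0.027 and 0.012 between same-numbered libraries), and a replicate block gave 3473 genes, 3445 of them shared. Leaving out 1 library lost the calls of *Lars2*, *Foxd3*, *Nrg1*, *Parvb*, *Fermt2*, *Dusp4*, *Spred3*, *Hif1a*, *Atf4* and *Hspa5* among the genes named above, and, among list counts of 6 or more, moved those of 4 lists by over 1.5 times, as given beside them. Of the 52 list counts against DMSO, 23 moved by that much under some alternative, and list counts against the other inhibitors were not recomputed. At 22539806 to 27449516 counts a library, genes under about 1 CPM had few counts, so that only large changes in them could pass.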

Other observations

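Some large gene groups outside the lists above can be read beside the 11% of all tested genes called lower with defactinib. These groups were formed from gene symbols after values were seen, so their counts are a description with no test of the group. Of 86 tested genes for cytosolic ribosomal proteins, 72 were lower and none was higher, with a median log2 fold change of -0.19, and 61 to 78 were lower under the alternatives. Of 37 tested proteasome subunits, 30 were lower and none higher (median -0.15). Translation initiation factors were lower in 27 of 56 and higher in 2. With length and GC trends removed, 71 ribosomal protein genes and 28 proteasome genes were lower. Of the 13 mitochondrially encoded protein genes, 8 were higher and none was lower (median 0.33), against 11.4% of all genes called higher. Nuclear genes for complex I subunits were lower in 3 of 36 (0 to 5 under the alternatives), a share near that of all genes, and mitochondrial ribosomal protein genes in 19 of 75 (10 without DMSO replicate 1). In direct comparison, ribosomal protein genes were higher with defactinib than with VS-4718 in 45 of 86 and lower in 4, lower than with GSK2256098 in 31 and lower than with IN10018 in 82.

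A small set of calls against DMSO rested on 1 library. Small noncoding RNA genes, 8 in number, were over 3 times higher in DMSO replicate 2 than in either other DMSO library, among them *Rn7s2* at 1, 183 and 2 counts and *Rny3* at 2, 178 and 2 counts in DMSO replicates 1, 2 and 3. None of the 8 was called without that library.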
